A study of Mus musculus with 4 samples.

Results

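The ID and SMAD genes that belong to the response to bone morphogenetic protein (BMP) were followed across dermal white adipose tissue (dWAT) of old and young mice at 2 phases of the hair cycle. The 8 members were Id1, Id2, Id3, Id4, Smad1, Smad5, Smad6 and Smad7, taken by name from the 22913 genes of the expression tables after the Ensembl gene identifiers had been matched to mouse symbols. All 8 were found, each with 1 identifier, and all 8 had a value above 0 in every library.

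The study compared the fat layer under the hair follicles (HF) of old mice with that of young mice, to see how this tissue differs with age while HFs rest and while they grow. RNA was sequenced from 4 groups of C57BL/6 mice with 1 library per group. OTD was dWAT of old mice (18 months) in telogen, the resting phase, and YTD was dWAT of young mice (2 months) in telogen. OAD and YAD were dWAT of old (18 months) and young (2 months) mice in anagen, the growth phase, which had been induced by depilation. The labels name no genetic change in any group. Both anagen groups had been depilated whereas the telogen groups had not, so the phase and the depilation cannot be told apart. In the study's methods dWAT was isolated by microdissection, without the deeper fat and the muscle layer of the skin. An age field in the labels gives 18 months for YTD and 2 months for OAD, against the names and descriptions of those samples, which were followed here.

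The values are FPKM, fragments counted per kilobase of gene and scaled to library size. Levels of different genes can be set side by side only roughly, since the gene lengths behind the values are not known exactly. A change is the difference of log2(FPKM + 1) between 2 libraries, and a gene counted as higher or lower when that change was at least 1 in size. A fold is the plain ratio of FPKM values. With 1 library per group no test between groups was possible and no spread between animals was measured. Each fold is given with a 95% interval from the number of fragments the values imply, which covers counting error only and is rough. The estimate was about 19800000 fragments for OTD, 18700000 for YTD, 24000000 for OAD and 21300000 for YAD, and the members had between 60 and 1478 fragments each. A count of 3 fragments, the limit that a count of 0 allows, was at most 0.445 FPKM for any member.

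BMP ligands bind paired type I and type II receptors, and the receptors phosphorylate SMAD1, SMAD5 and SMAD9, which join SMAD4 and enter the nucleus. ID1, ID2, ID3 and ID4 are helix-loop-helix proteins without a DNA-binding domain, which hold E proteins away from DNA, and their genes are among the best known direct targets of BMP. SMAD6 and SMAD7 are inhibitory SMADs: SMAD6 mainly restrains BMP signals, SMAD7 restrains both BMP and TGF-β signals, and both genes are themselves induced by the pathways that they restrain. In skin, BMP signals are known for holding HF stem cells at rest, and dermal fat is one known source of BMP ligands. ID genes also answer to other stimuli, such as serum and growth factors, and are active in endothelial cells.

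Promoter windows of 250 bases before to 50 bases after the RefSeq start (GRCm38.p6) were read for 6 of the 8 members, in 8 windows. Smad6 is shown because it had the largest log2 change between phases among the members in old dWAT. Id2 and Id4 are shown because they had the largest log2 changes among the ID genes, Id2 between phases in young dWAT and Id4 between ages in telogen. Capitals mark GTCTAGAC, a palindrome that SMAD3 and SMAD4 can bind, in Smad6, and GGCGCC, a GC-rich element known from BMP target genes, in Id2 and Id4. The windows are Smad6 at chr9:64022010-64022309 (minus strand), Id2 at chr12:25096043-25096342 (minus strand) and Id4 at chr13:48260866-48261165 (plus strand), each written 5′ to 3′ on the strand of the gene.
Smad6: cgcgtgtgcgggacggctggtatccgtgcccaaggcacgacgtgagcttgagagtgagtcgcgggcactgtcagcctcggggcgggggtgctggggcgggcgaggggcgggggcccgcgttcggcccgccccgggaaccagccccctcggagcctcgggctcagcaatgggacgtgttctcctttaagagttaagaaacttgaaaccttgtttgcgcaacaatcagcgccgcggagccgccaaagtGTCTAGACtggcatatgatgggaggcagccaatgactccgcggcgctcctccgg
Id2: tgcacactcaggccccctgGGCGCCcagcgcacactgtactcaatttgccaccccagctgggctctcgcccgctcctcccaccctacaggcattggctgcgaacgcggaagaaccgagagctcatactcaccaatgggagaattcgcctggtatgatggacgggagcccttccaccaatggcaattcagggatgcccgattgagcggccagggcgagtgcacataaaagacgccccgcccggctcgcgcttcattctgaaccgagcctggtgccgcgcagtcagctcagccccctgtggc
Id4: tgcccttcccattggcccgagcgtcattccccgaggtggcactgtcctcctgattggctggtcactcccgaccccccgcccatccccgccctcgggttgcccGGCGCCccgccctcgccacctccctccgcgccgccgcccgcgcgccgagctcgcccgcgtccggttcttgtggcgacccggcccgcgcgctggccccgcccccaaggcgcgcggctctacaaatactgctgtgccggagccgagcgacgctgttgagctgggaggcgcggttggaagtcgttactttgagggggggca
Each motif was searched as exact letters on both strands. GTCTAGAC began 4 bases before the start of Smad6 (position -4) and was held by 70 of 32851 windows of all genes, or 0.213%; it contains GTCT on both strands. Smad6 was the only member with it among the 6 whose windows were read. Id1 had no window among those available, and Smad7 was left out before the search, not for want of a match. Nothing is known here of the motif in either gene. Whether Smad6 is the only one of the 8 members with it was therefore not tested. GGCGCC began at position -231 in Id2 and at position -148 in Id4, and was also in 2 of the 3 Smad5 windows, which overlap each other, whereas 11.9% of all windows held it. The windows of Id3 and Smad1 held neither sequence. GC content was 66.3% in the Smad6 window, 63.3% in the Id2 window and 73.3% in the Id4 window, with a median of 52.7% over all windows. A match of letters is a description of the sequence and says nothing of binding in this tissue.

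Before the members, the libraries themselves differed. Mitochondrially encoded genes held 52.7% and 44.7% of all FPKM in OTD and YTD, and 18.3% and 14.4% in OAD and YAD. All 12 adipocyte markers were present in every library, and their summed level was 6838 FPKM in YTD and 8147 in OTD, then 2012 in YAD and 2854 in OAD. The 11 matched hair shaft and matrix markers summed to 35.0 and 105 FPKM in OTD and YTD but to 11423 and 11877 in OAD and YAD, and 12 skeletal muscle markers summed to 62458 and 99045 against 14711 and 11191. The tissue labelled dWAT thus held RNA of other skin cells in amounts that moved with phase. In bulk tissue, fewer cells of a type and less RNA per cell cannot be told apart.

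Id3 and Id1 were the most abundant members in every library, and Id2 was the third. ID genes together reached 166 FPKM in YTD and 261 in OTD, then 385 in YAD and 324 in OAD. Id3 supplied between 44.3% (OAD) and 56.1% (YTD) of that sum. Id4 was the scarcest ID gene throughout, at 3.95% of the sum in YTD and 6.14% in OTD, then 4.88% in YAD and 8.93% in OAD, so its share was larger in the old library of each phase. The lowest ID sum was that of YTD and the highest that of YAD.

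Id3 (ENSMUSG00000007872, chr4:136143497-136145392, plus strand) measured 93.3 FPKM in YTD and 136 in OTD, then 193 in YAD and 144 in OAD. YAD was the highest and YTD the lowest, and OAD and OTD differed by no more than counting error. Id1 (ENSMUSG00000042745, chr2:152736251-152737410, plus strand) measured 47.8 FPKM in YTD and 77.6 in OTD, then 119 in YAD and 109 in OAD. Id2 (ENSMUSG00000020644, chr12:25093801-25096092, minus strand) measured 18.7 FPKM in YTD and 31.1 in OTD, then 53.9 in YAD and 42.7 in OAD. Id1 and Id2 had the same order as Id3, with both anagen libraries above both telogen libraries and every neighbour in the order apart by more than counting error. Id4 (ENSMUSG00000021379, chr13:48261427-48264036, plus strand) measured 6.57 FPKM in YTD and 16.0 in OTD, then 18.8 in YAD and 28.9 in OAD. Its order differed from that of the other ID genes, since OAD and not YAD was the highest.

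Smad1 and Smad5 encode receptor-regulated SMADs of the BMP branch. Smad1 (ENSMUSG00000031681, chr8:79338395-79399518, minus strand) measured 9.18 FPKM in YTD and 12.9 in OTD, then 18.8 in YAD and 17.6 in OAD. Smad5 (ENSMUSG00000021540, chr13:56703010-56742377, plus strand) measured 14.0 FPKM in YTD and 12.5 in OTD, then 22.0 in YAD and 19.4 in OAD. Both were higher in anagen, and the differences between OAD and YAD for Smad1 and between OTD and YTD for Smad5 were within counting error.

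Smad6 (ENSMUSG00000036867, chr9:63953076-64022059, minus strand) measured 7.35 FPKM in YTD and 6.55 in OTD, then 31.1 in YAD and 31.2 in OAD. Smad7 (ENSMUSG00000025880, chr18:75367529-75395935, plus strand) measured 4.69 FPKM in YTD and 6.28 in OTD, then 20.1 in YAD and 23.6 in OAD. These inhibitory SMADs split by phase, with each anagen library far above each telogen library. The Smad6 values of the old and young libraries differed by no more than counting error in either phase. Summed, Smad6 and Smad7 were at 0.504 and 0.518 of the summed level of Smad1 and Smad5 in OTD and YTD, and at 1.48 and 1.26 of it in OAD and YAD. In FPKM the inhibitory pair was thus below the receptor-regulated pair in telogen and above it in anagen, though levels of different genes compare only roughly.

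**Figure D1:**
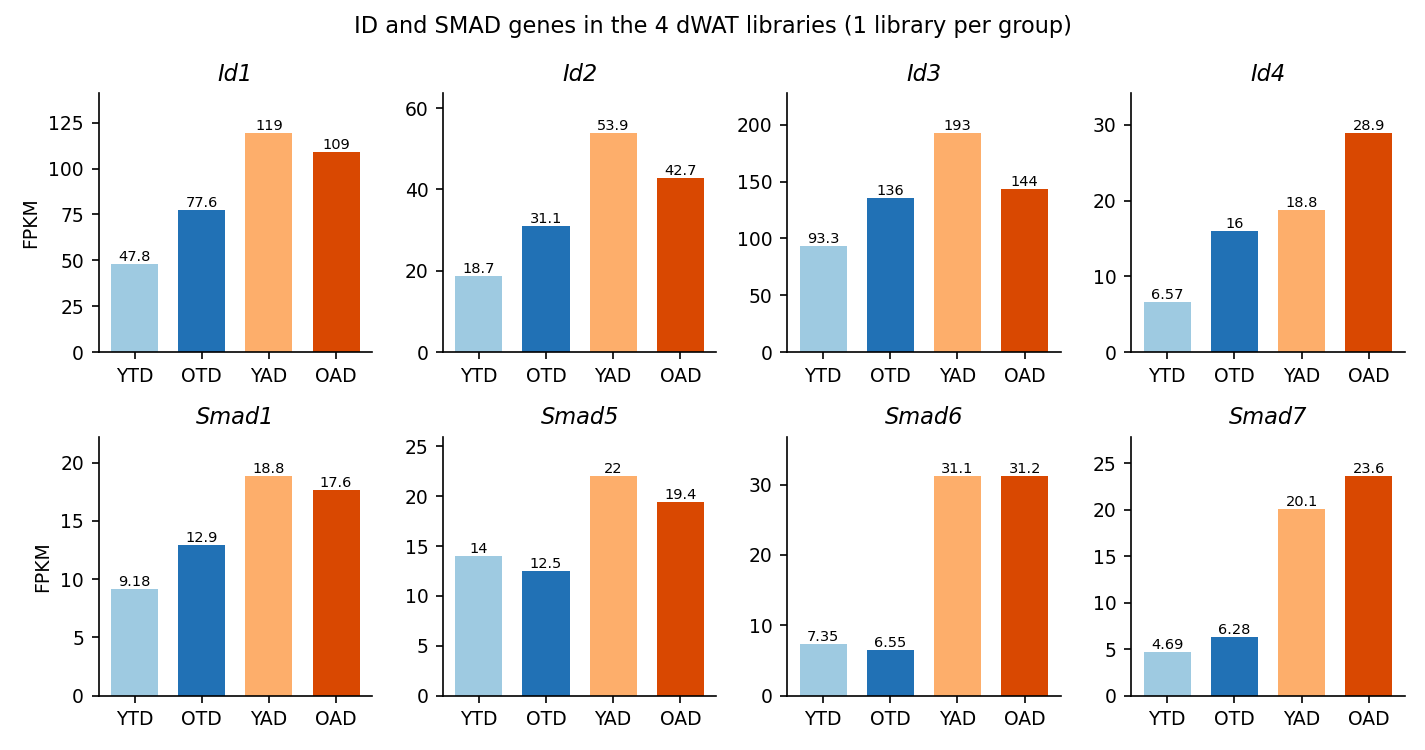
FPKM of each member (vertical axes, from 0, each with its own scale) in the 4 libraries, 1 bar per library and none with an error bar since each group had 1 library. Smad6 and Smad7 stand at 4.69 to 7.35 FPKM in telogen and 20.1 to 31.2 in anagen, and YTD is the lowest library for Id1, Id2, Id3, Id4, Smad1 and Smad7.

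The phases were compared within each age, to see how the members differed between growing and resting skin. In young dWAT all 8 members were higher in anagen, 6 of them past the threshold, and the changes ran from 0.61 to 1.94 around a median of 1.34. Over all 17622 genes tested, 16.1% were higher by that much and 16.7% lower, and the median change was 0.02. The inhibitory SMADs had the largest changes, 1.94 for Smad6 (fold 4.24, 3.64 to 4.95) and 1.89 for Smad7 (fold 4.29, 3.51 to 5.33), and which of them came first depended on the pseudocount. All 4 ID genes were past the threshold: Id2 by 1.48 (fold 2.89, 2.38 to 3.50), Id4 by 1.39 (fold 2.86, 2.12 to 3.87), Id1 by 1.30 (fold 2.50, 2.24 to 2.79) and Id3 by 1.04 (fold 2.07, 1.88 to 2.27). Smad1 stayed just under it at 0.96 (fold 2.05, 1.76 to 2.40) and Smad5 had the smallest change, 0.61 (fold 1.57, 1.38 to 1.78).

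In old dWAT all 8 members lay above 0, and Smad6 and Smad7 (2 of 8) passed the threshold, against 16.1% of 17712 genes higher and 15.6% lower; with TPM, a scaling described after these values, 6 of 8 did. The median of the members was 0.54, beside 0.01 over all genes. The change was 2.09 for Smad6 (fold 4.76, 4.09 to 5.59) and 1.76 for Smad7 (fold 3.76, 3.16 to 4.49), close in size to those in young dWAT. Log2 changes of the ID genes were smaller than in young dWAT, at 0.82 for Id4 (fold 1.81, 1.49 to 2.20), 0.48 for Id1 (fold 1.40, 1.28 to 1.53), 0.45 for Id2 (fold 1.37, 1.17 to 1.61) and 0.08 for Id3 (fold 1.06, 0.971 to 1.15). The interval of Id3 spanned 1. Smad5 differed by 0.60 (fold 1.55, 1.36 to 1.77) and Smad1 by 0.42 (fold 1.36, 1.19 to 1.56). Whether the phase changes of the ID genes differed between ages could not be tested with 1 library per group.

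These counts depend in part on how the libraries are scaled to each other. Rescaled to TPM, in which every library has the same sum, the median gene moved up by 0.73 in young and 0.58 in old dWAT. With TPM 8 of 8 members were past the threshold in young dWAT, where 33.4% of all genes were higher and 7.23% lower. In old dWAT 6 of 8 were, where 27.8% of all genes were higher and 8.48% lower. Relative to the shift of the median gene, the changes in young dWAT were 2.00 for Smad6, 1.92 for Smad7, 1.57 for Id2, 1.43 for Id4, 1.40 for Id1 and 1.15 for Id3. Smad1 was at 1.02 and Smad5 at 0.68, below the threshold. Relative to the median gene in old dWAT the changes were 2.08 for Smad6, 1.74 for Smad7, 0.83 for Id4, 0.52 for Id1, 0.47 for Id2 and 0.11 for Id3. Smad5 was at 0.60 and Smad1 at 0.42. The one change of sign between phases was that of Id3 in old dWAT, which was -0.09 once mitochondrial genes were left out and the libraries rescaled.

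**Figure D2:**
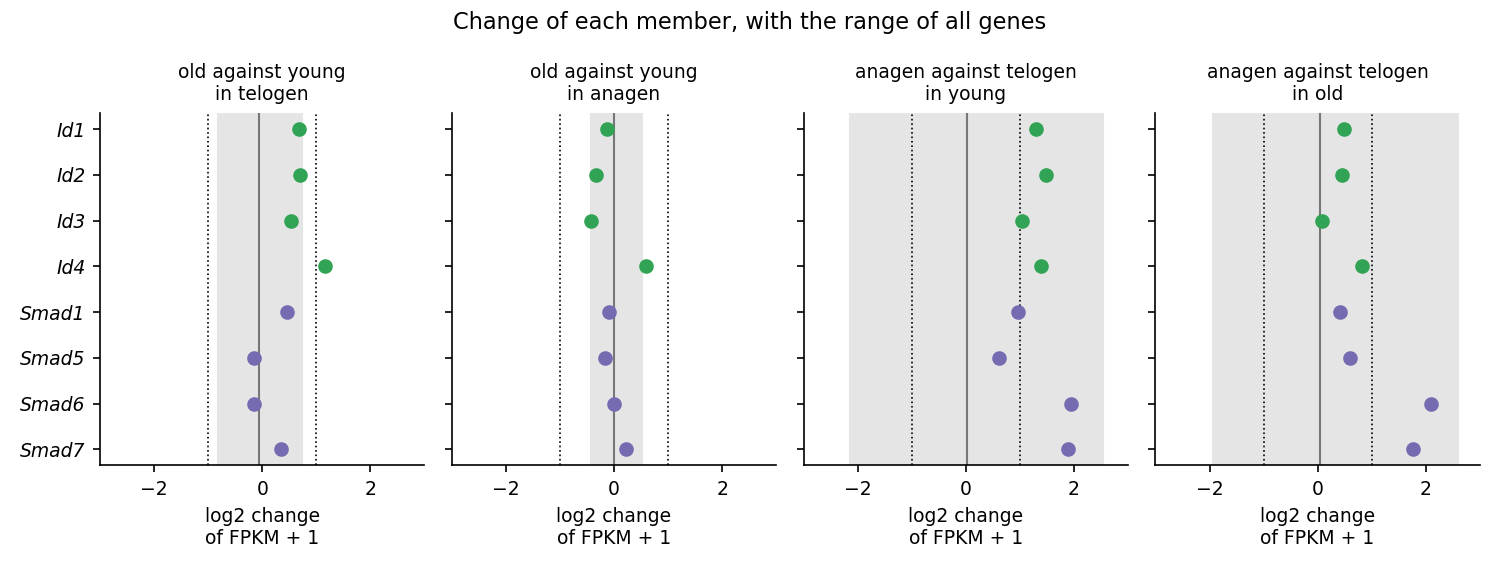
Log2 change of FPKM + 1 (horizontal axes) of each member in the 4 comparisons, ID genes in green and SMAD genes in purple. Grey bands run from the 5th to the 95th percentile of genes that reached 1 FPKM in either library. The grey line is their median and dotted lines mark a change of 1 in size. Id4 lies above the band in both comparisons of age, and Id3 lies just below it with age in anagen.

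Old and young dWAT were compared within each phase, to see whether the members differed with age. In telogen all 4 ID genes were higher in OTD than in YTD, and 1 of the 8 members, Id4, passed the threshold, where 1.67% of 17230 genes were higher by as much and 1.93% lower. Id4 differed by 1.17 (fold 2.44, 1.80 to 3.34), which was above 98.7% of the genes that reached 1 FPKM in either library. Id2 differed by 0.71 (fold 1.67, 1.35 to 2.06), Id1 by 0.69 (fold 1.62, 1.44 to 1.83) and Id3 by 0.54 (fold 1.46, 1.31 to 1.61), and these 3 lay above 94.4%, 94.0% and 90.3% of those genes. Smad1 (0.45, fold 1.41, 1.20 to 1.67) and Smad7 (0.36, fold 1.34, 1.05 to 1.73) were also higher in OTD. Smad5 and Smad6 had changes of -0.15 each, with intervals that spanned 1, and both were at 0.05 once mitochondrial genes were left out. The median of the 8 members was 0.50, beside -0.03 over all genes, and 6 of 8 members lay above 0 where 45.8% of all genes did.

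In anagen no member passed the threshold (0 of 8), where 0.727% of 17613 genes were higher and 0.454% lower by as much. The median of the members was -0.11, beside 0 over all genes, and the changes ran from -0.42 to 0.60. Id4 was higher in OAD than in YAD by 0.60 (fold 1.54, 1.29 to 1.85), above 96.5% of genes. The other ID genes lay below 0, with -0.42 for Id3 (fold 0.745, 0.690 to 0.804), -0.33 for Id2 (fold 0.793, 0.693 to 0.908) and -0.13 for Id1 (fold 0.911, 0.844 to 0.985). Of genes that reached 1 FPKM in either library, 4.83% lay below Id3, 8.19% below Id2 and 26.6% below Id1. Id4 was thus the one ID gene that was higher in old dWAT in both phases, and its direction was the same under all 4 other scalings, as were those of Id1, Id2 and Id3 in each phase. Smad7 differed by 0.22 (fold 1.17, 1.05 to 1.32) and Smad6 by 0.00 (interval of the fold 0.917 to 1.09); both lay at or below 0 with TPM, at -0.0004 and -0.23, where the median gene moved by -0.21. With TPM 0.590% of all genes were higher and 0.994% lower. The age comparisons share no library with each other, but each shares its libraries with the phase comparisons: the low level of the ID genes in YTD enters both the age change in telogen and the phase change in young dWAT.

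Other genes were also higher in old dWAT in telogen. Of 23 listed immediate early genes, which answer within minutes to injury, serum and handling, 22 were matched and all 22 lay above 0 in OTD against YTD, 19 of them by at least 1 (median 1.43), at a summed level of 1258 against 392 FPKM. Fos measured 12.3 FPKM in YTD and 131 in OTD, then 7.68 in YAD and 18.5 in OAD. Egr1 measured 7.25 FPKM in YTD and 71.0 in OTD, then 36.7 in YAD and 50.6 in OAD. In anagen 17 of the 22 lay above 0 and 2 passed the threshold, Atf3 and Fos, with a median of 0.27.

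All 12 endothelial markers were also higher in OTD than in YTD (median 0.62, summed 649 against 416 FPKM) and in OAD than in YAD (median 0.30, summed 164 against 123 FPKM); with TPM 9 of the 12 were higher in OAD. Between phases all 12 were lower in anagen by at least 1, with medians of -1.57 in young and -1.85 in old dWAT. In young dWAT the 4 ID genes were higher in anagen by at least 1. In old dWAT none was past that threshold in the FPKM as deposited, but with TPM Id1, Id2 and Id4 were higher by at least 1. Over all genes, 16.1% were higher by as much in each age as deposited. With TPM 27.8% were in old dWAT, where the median gene moved up by 0.58. The part of endothelial cells in the phase changes of the ID genes was not tested. Fibroblast markers lay above 0 for 7 of 9 in telogen (median 0.54, summed 1606 against 1152 FPKM) and for 0 of 9 in anagen (median -0.66, summed 225 against 440 FPKM). Macrophage markers lay above 0 for 9 of 10 in telogen (median 0.42, summed 821 against 502 FPKM) and for 0 of 10 in anagen (median -0.26, summed 104 against 132 FPKM). No marker of these 3 lists was at 0 in any library. With age in telogen the other marker lists went both ways. Above 0 lay 6 of 6 Schwann cell, 7 of 8 smooth muscle and pericyte, 7 of 12 adipocyte and 4 of 7 T cell markers. Below 0 lay all 12 skeletal muscle and all 11 hair shaft and matrix markers, 8 of 10 epidermal keratinocyte and 5 of 7 melanocyte markers. The part of any of these cell types in the age changes of Id1, Id2 and Id3 was not tested.

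**Figure D3:**
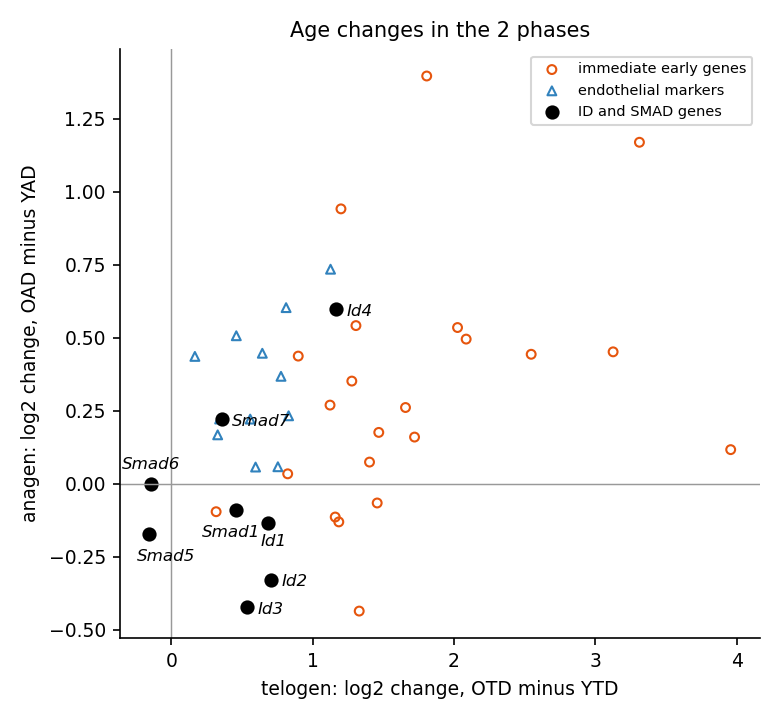
Log2 change with age in telogen (horizontal axis, OTD minus YTD) and in anagen (vertical axis, OAD minus YAD) for the 8 members (filled circles), 22 immediate early genes (open circles) and 12 endothelial markers (triangles). Id1, Id2 and Id3 lie to the right of 0 and below 0, and Id4 lies to the right and above.

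Over all genes tested, 16.1% were higher in anagen by at least 1 in young dWAT and 16.7% lower. In old dWAT 16.1% were higher and 15.6% lower, and the phase counts of the pathway lists below stand beside these shares. The ligands and secreted antagonists of the pathway (15 listed, after 1 gene was left out with its values known) held genes on both sides between phases. In young dWAT 4 of the 14 with a value were higher in anagen by at least 1 (Bmp2, Bmp4, Bmp7 and Sostdc1) and 2 lower (Chrd and Gdf5), with a median of -0.31. In old dWAT 3 of 15 were higher (Bmp2, Bmp4 and Bmp7) and 2 lower (Fstl1 and Gdf5), with a median of -0.17. With TPM the median of this list in old dWAT was 0.12, and in young dWAT 8 genes lay above 0 and 6 below, so the list had no direction that held under each scaling. Bmp2, a ligand, measured 1.20 FPKM in YTD and 1.70 in OTD, then 11.9 in YAD and 15.5 in OAD, a change with phase of 2.55 in young and 2.61 in old. Bmp4 measured 5.77 FPKM in YTD and 9.92 in OTD, then 23.7 in YAD and 25.6 in OAD, a change with phase of 1.87 in young and 1.28 in old and with age in telogen of 0.69. In the FPKM as deposited, Bmp2, Bmp4, Bambi and Hes1 had the order of Id4 and Smad7, with OAD highest and YTD lowest. Between OAD and YAD the changes were 0.36 for Bmp2, 0.10 for Bmp4, 0.07 for Bambi and 0.02 for Hes1. With TPM the median gene moved by -0.21 between OAD and YAD, a shift larger than the changes of Bmp4, Bambi and Hes1. Smad7 was at -0.0004 under that scaling and did not keep the order. Bmp7 was at 1.04 and 1.27 FPKM in OTD and YTD and at 29.1 and 26.1 in OAD and YAD.

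Among the antagonists, Nog (noggin, which sequesters BMP2 and BMP4) measured 4.72 FPKM in YTD and 2.09 in OTD, then 2.24 in YAD and 3.16 in OAD. It was lower in old dWAT by 0.89 in telogen, where YTD was the highest library. Sostdc1, a secreted BMP and Wnt antagonist, measured 3.66 FPKM in YTD and 4.92 in OTD, then 19.3 in YAD and 6.91 in OAD. Its change of -1.36 between OAD and YAD was the one past the threshold with age in anagen among the genes kept in the 6 pathway lists from ligands to partners of ID proteins.

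Among the BMP receptors, Bmpr1a, Bmpr2 and Acvr1 passed a change of 1 in no comparison. Bmpr1a, a type I receptor, measured 27.2 FPKM in YTD and 20.5 in OTD, then 25.9 in YAD and 25.9 in OAD. Bmpr2, the type II receptor, stood between 10.2 (OTD) and 13.0 FPKM (OAD), and Acvr1, another type I receptor, between 11.97 (YAD) and 15.7 FPKM (OAD). The receptor list held 1 gene of 12 that was higher by at least 1 in anagen in both ages, Bambi, a pseudoreceptor that blocks BMP and TGF-β signals and is induced by BMP. It measured 2.38 FPKM in YTD and 3.33 in OTD, then 30.4 in YAD and 32.1 in OAD. Lower by at least 1 were 4 of 12 in young (Acvrl1, Eng, Rgma and Tgfbr3) and 3 in old dWAT (Acvrl1, Eng and Tgfbr3). Acvrl1 and Eng, receptors best known from endothelial cells, were lower in anagen alongside the endothelial markers: Acvrl1 measured 18.3 FPKM in YTD and 28.5 in OTD, then 6.39 in YAD and 6.28 in OAD.

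Among the SMADs that are not members, Smad4, the shared partner, stood between 16.6 (OTD) and 19.9 FPKM (YAD). Smad9, the third receptor-regulated SMAD of the BMP branch, was at or below 0.563 FPKM in each library. Smad3, of the TGF-β branch, measured 18.3 FPKM in YTD and 8.81 in OTD, then 6.92 in YAD and 8.34 in OAD, so that YTD was the high library where it was the low one for the ID genes. Its changes were -0.97 with age in telogen and -1.28 with phase in young dWAT. Of 12 regulators of SMADs, which include ubiquitin ligases, phosphatases and corepressors, 1 was higher in anagen in young dWAT (Ctdspl) and 3 were lower (Nedd4l, Ppm1a and Zeb2). In old dWAT 0 were higher and 1 was lower (Zeb2).

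Of 12 other genes known to answer to BMP, a list that shares Bambi, Nog and Hes1 with others used here, 6 were higher in anagen by at least 1 in young dWAT (Bambi, Dlx3, Dlx5, Hes1, Msx1 and Msx2) and 2 lower (Gata2 and Nfatc1), with a median of 0.76. In old dWAT 5 were higher (Bambi, Dlx3, Dlx5, Msx1 and Msx2) and 4 lower (Atoh8, Gata2, Hey1 and Nfatc1), with a median of 0.69. Msx2, a homeobox gene of the hair matrix that is also on the hair marker list, measured 3.25 FPKM in YTD and 0.830 in OTD, then 120 in YAD and 109 in OAD. Dlx3, a homeobox gene of the hair shaft lineage, measured 6.89 FPKM in YTD and 1.495 in OTD, then 231 in YAD and 207 in OAD. With age in telogen 0 of the 12 were higher and 2 lower by at least 1, Dlx3 (-1.66) and Msx2 (-1.22), and 6 of the 12 lay above 0. Of the 4 ID genes 1 was higher by at least 1 and all 4 lay above 0. Over all genes tested with age in telogen, 1.67% were higher by as much, 1.93% were lower and 45.8% lay above 0. In the same comparison the 11 matched hair shaft and matrix markers all lay below 0. Of these, 8 were lower by at least 1, Msx2 among them (median -1.22). The part of hair cells in the age changes of Dlx3 and Msx2 was not tested. With phase the homeobox genes Dlx3, Dlx5, Msx1 and Msx2 were higher in both ages, as were Smad6 and Smad7. In the FPKM as deposited, the ID genes passed the threshold in young dWAT alone. With TPM, Id1 (1.09), Id2 (1.05) and Id4 (1.40) passed it in old dWAT too, and Id3 (0.69) did not. Under that scaling 27.8% of all genes were higher by at least 1 in old dWAT. The 11 hair shaft and matrix markers and the 7 melanocyte markers were all higher in anagen by at least 1 in both ages. Epidermal keratinocyte markers lay above 0 for 10 of 10 in both ages, 8 of them by at least 1 in young (summed 1045 against 91.2 FPKM) and 7 in old dWAT (1483 against 59.6 FPKM). Their part in the phase changes of the members was not tested.

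Of 10 partners of ID proteins, 2 were higher in anagen by at least 1 in young dWAT (Hes1 and Tcf3) and 5 lower (Ets1, Lyl1, Myod1, Myog and Tal1), and in old dWAT 1 was higher (Tcf3) and the same 5 lower. Tcf3, which encodes the E proteins E12 and E47, measured 13.2 FPKM in YTD and 13.5 in OTD, then 36.0 in YAD and 32.1 in OAD. The other E protein genes did not share that change: Tcf12 stood between 13.9 (YTD) and 15.1 FPKM (OAD), and Tcf4 was lower in anagen, by 0.35 in young and 0.73 in old. Myod1 and Myog, which drive muscle differentiation, were lower in anagen with the skeletal muscle markers. No gene of the pathway lists in these paragraphs that was past a change of 1 turned sign under any of the other scalings.

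**Figure D4:**
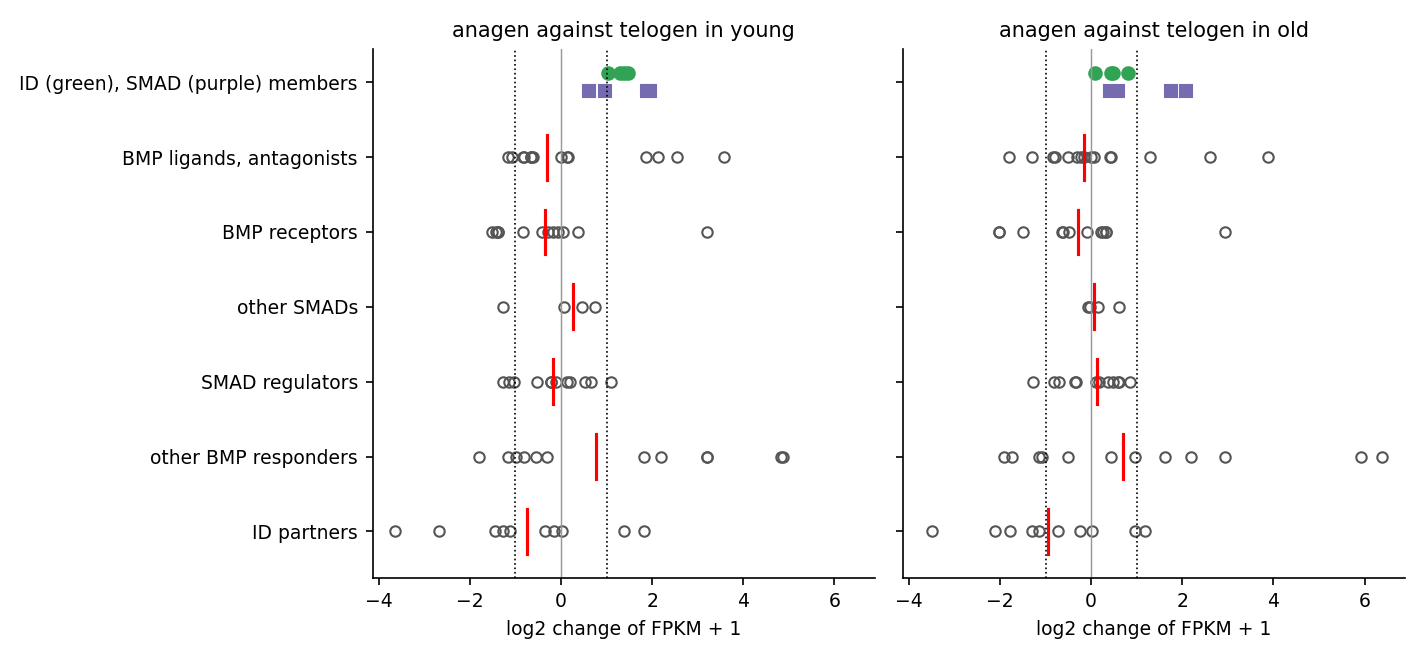
Log2 change of FPKM + 1 between anagen and telogen (horizontal axes) in young and old dWAT for the 8 members (ID genes as green circles, SMAD genes as purple squares) and for the genes of 6 pathway lists (open circles), with red lines at each list's median and dotted lines at a change of 1 in size. All members lie above 0 in both panels, while the listed ligands and receptors spread to both sides.

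The genes whose level over the 4 libraries was most like a member's were found by the distance between log2(FPKM + 1) profiles centred on their own mean, among 11010 genes with a symbol that reached 1 FPKM in every library. With 4 libraries many genes come close, and nothing is read from it on function. It was done for 6 members, leaving out Smad1 and Smad5, whose own range over the libraries was below 1 on that scale. Of the 6, Id2 was the one with another member among its 3 nearest genes, Id1 (distance 0.155), beside Rab7b and Myef2. Nearest to Id1 were Lrp12, H3f3b and Fam91a1 (0.0367 to 0.121). Nearest to Id3 were Gm7008, Fam76b and Cyp26b1 (0.0774 to 0.0926). Id4 had no gene as close, with Krtdap, Egr2 and Sertad1 at 0.291 to 0.307, and of these Egr2 is on the immediate early list. Nearest to Smad6 were Mbd6, Sltm and Tead3 (0.0346 to 0.0430), and nearest to Smad7 were Map3k5, Cd109 and Srsf9 (0.0635 to 0.0805). Between members, Smad6 and Smad7 were 0.434 apart, Id3 and Id4 1.01, and Id3 and Smad6 1.57, the largest distance among the members.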

How the data were processed

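RNA of dWAT from 4 groups of mice (OTD, YTD, OAD and YAD, 1 library each, tissue from many mice per group in the study's methods) was sequenced, and the authors deposited 1 table of FPKM per gene for each library. The submitters' processing notes name bcl2fastq, TopHat2 and the GRCm38 build; the tool that made the FPKM values, and whether strand was used, are not given in the sources used here. Gene identifiers were matched to symbols for 21750 of 22913 genes. The listed gene lengths were multiples of 3 for 97.0% of genes, so they look like coding lengths.

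Changes were computed as differences of log2(FPKM + 1), over genes above 0 in either library of a comparison. Fragments per library were estimated from the smallest steps of FPKM in genes of 2000 to 4000 bp. FPKM times listed length summed to between 64.1% (YAD) and 112% (YTD) of 1 library, where more than the whole cannot be, so the lengths behind the values differ from those listed and the intervals (exact binomial, 95%) and floors of 3 fragments are rough. PCR copies are counted as fragments.

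The 8 members and the gene lists were chosen with earlier results of these data known. Named genes were all members, pathway genes with a change of at least 1 in size, fixed ligands, receptors, SMADs and E proteins, and the 3 nearest genes of each member whose own range was at least 1; immediate early genes other than examples are given as counts. Of 190 listed genes, Cyr61, Trac and Krt85 had no match; 1 further gene was taken off the ligand and antagonist list after its values were seen and is not reported here. Motif searches used 11 sequences, of which GTCTAGAC, GGCGCC and GTCT are reported. Alternatives were pseudocounts of 0.1 and 0.01, a minimum of 1 FPKM, 4 other scalings and a fold of 1.5. Computation used Python 3.11.15, pandas 2.3.3 and SciPy 1.17.1.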

Additional observations from a re-analysis of the deposited data

Results flagged for a closer look

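The change with age of Id1, Id2 and Id3 had opposite signs in telogen and anagen, and each counting interval excluded a fold of 1. These intervals are rough, and that of Id1 in anagen (fold 0.911, 0.844 to 0.985) came close to 1. In anagen 26.6% of genes that reached 1 FPKM in either library lay below Id1, 8.19% below Id2 and 4.83% below Id3. For Id1 the change was 0.69 in telogen and -0.13 in anagen, 0.82 apart. For Id2 it was 0.71 and -0.33, 1.03 apart. For Id3 it was 0.54 and -0.42, 0.96 apart. These differences were not tested, since each group had 1 library. The signs were the same under all 4 other scalings. Immediate early genes had a median change with age of 1.43 in telogen and 0.27 in anagen, and fibroblast markers 0.54 and -0.66, and their part in these differences was not tested.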

How the results depend on the processing

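With a fold of 1.5 as the threshold the members counted were 3 with age in telogen, 1 with age in anagen, 8 with phase in young and 4 with phase in old dWAT, in place of 1, 0, 6 and 2. Of all genes 6.75%, 2.98%, 26.2% and 26.0% were higher by that fold in these comparisons, and 9.23%, 1.99%, 26.1% and 24.8% lower. With TPM the count with phase in old dWAT was 6, where 27.8% of all genes were higher. With phase in young dWAT it was 7 or 8 under 5 of the other settings, and Smad1, at 0.96, was the member nearest below a change of 1. The minimum of 1 FPKM could move no member change, since each member was above it in every library. Of 224 member changes recomputed under the alternatives, that minimum included, 178 stayed within a margin about the reported change. The margin was as wide as the counting interval and centred on the reported change. The other 46 moved beyond that margin, and 0 past the threshold changed sign. The 7 that changed sign were all below it. They were Smad5 and Smad6 with age in telogen (0.05 each without mitochondrial genes), Smad6 with age in anagen (-0.23 with TPM, -0.16 without mitochondrial genes and -0.13 without mitochondrial and tissue genes), Smad7 with age in anagen (-0.0004 with TPM) and Id3 with phase in old dWAT (-0.09 without mitochondrial genes). The scalings themselves shifted the median gene. No paired analysis was possible because each group had 1 library, and no replicate could be left out for the same reason. Depth limited Id4 in YTD most, at about 60 fragments.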
